A study of Mus musculus with 6 samples.

Results

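*Sox4*, *Sox11* and *Sox12* are the 3 SoxC genes of the mouse, and their surroundings were examined in a genome-wide list of Gli3 binding sites from the embryonic cortex. Sites were chosen by position in that list: every site whose midpoint lay within 350 kb of the transcription start site (TSS) of a SoxC gene was taken, and a site was marked as nearest when no other protein-coding gene had a TSS closer to its midpoint. This gave 14 of the 4114 listed sites, of which 10 were nearest to a SoxC gene. The 14 sites were divided as 8 at *Sox4*, 1 at *Sox11* and 5 at *Sox12*, and the 10 nearest sites as 8, 1 and 1. Because the listed positions themselves selected the sites and the genes, the counts that follow are descriptions, and no test was made of them.

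The experiment was chromatin immunoprecipitation followed by sequencing (ChIP-seq), which recovers the DNA fragments bound by a protein, with an antibody against Gli3 in the cerebral cortex of wild-type mouse embryos at embryonic day 15 (E15). It comprised 3 Gli3 libraries and 3 input libraries, the latter made from chromatin that was not immunoprecipitated, and all 6 share this tissue, stage and genotype. The strain was not given in the sources used here. The replicates were joined by the authors into 1 list of start and end positions without counts or heights, so that neither the depth nor an error between embryos could be given for any site. The cortex contains several cell types, and a site in this list cannot be assigned to one of them. No expression was measured in these libraries, and the tissue label could not be checked against marker genes.

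SoxC proteins are transcription factors that bend DNA through a high mobility group (HMG) box and carry a transactivation domain at the carboxyl end. In the developing cortex, Sox4 and Sox11 act in intermediate progenitors and newborn neurons, where they are known for switching on neuronal genes after the proneural factors, and Sox12 is a weaker activator with an overlapping expression. Gli3 is a zinc finger factor of the Sonic hedgehog (Shh) pathway. When the signal is absent it is processed to a repressor, and its preferred sequence is the GLI core GACCACCCA.

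The 3 genes lie on different chromosomes of the mm10 assembly (GRCm38), all on the minus strand. *Sox4* (ENSMUSG00000076431.4) spans chr13:28948919-28953713, *Sox11* (ENSMUSG00000063632.6) chr12:27334264-27342574 and *Sox12* (ENSMUSG00000051817.8) chr2:152393611-152398063 in GENCODE M21. *Sox4* and *Sox11* are each annotated with 1 transcript of 1 exon. The 2 genes had no other protein-coding TSS within 350 kb on either side, which held for 549 of 21938 protein-coding genes, whereas the window of *Sox12* held 26 other protein-coding TSSs. The span nearer to the gene than to any other protein-coding TSS, cut at 350 kb on each side and called its territory here, was therefore 698.1 kb for *Sox4*, 700.0 kb for *Sox11* and 19.2 kb for *Sox12*, beside a median of 47.7 kb over all protein-coding genes.

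Exact GLI cores were present in 3 of the 14 sites, and they are shown first because this is the sequence that Gli3 is known to prefer. The core lies in capitals in each line, read 5′ to 3′ on the strand where it matches, with the neighbouring bases of the GRCm38 reference in lower case. The first is at chr13:28775429-28775477 (plus strand), in the site 178 kb downstream of *Sox4*. The second is at chr2:152055503-152055551 (minus strand), in the site 342 kb downstream of *Sox12*. The other two share the site 29.9 kb downstream of *Sox12*, at chr2:152367736-152367784 (minus strand) and chr2:152368970-152368998 (plus strand).
Sox4 window, core 178 kb from the TSS: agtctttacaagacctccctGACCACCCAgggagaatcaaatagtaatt
Sox12 window, core 343 kb from the TSS: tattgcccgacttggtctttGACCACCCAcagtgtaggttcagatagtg
Sox12 window, core 30.3 kb from the TSS: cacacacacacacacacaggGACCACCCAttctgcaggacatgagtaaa
Sox12 window, core 29.1 kb from the TSS: cttttgtctgGACCACCCAtaggaagaaa

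Only the first of these cores belongs to a site whose nearest protein-coding gene is a SoxC gene. It lies 39 bp from the midpoint of its site, in an intron of the noncoding gene *2610307P16Rik*. The other 3 cores are nearer to *Scrt2* or *Nrsn2* than to *Sox12*, and the last of them falls in the 3′ UTR of *Nrsn2*, for which fewer neighbouring bases are given. An exact core on either strand was found in 502 of the 4099 sites on chromosomes 1 to 19, X and Y (12.2%) and in 1.83% of 8176 flanking regions of the same lengths. The 1 of 10 sites nearest to a SoxC gene is close to the share over all sites, and the flanks of these 10 sites, 20 in all, contained 0.

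The distribution of the sites differed from gene to gene in position as well as in number, and each gene is described in turn. *Sox4* had 8 sites in its window, all nearest to it, but 0 within 2 kb of its TSS and 1 within 50 kb. *Sox11* had 1 site, which lay over its TSS. *Sox12* had 1 nearest site, also over its TSS, and 4 further sites in the window that were nearer to other genes. The windows are drawn to scale in the map of site midpoints.

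**Figure D1:**
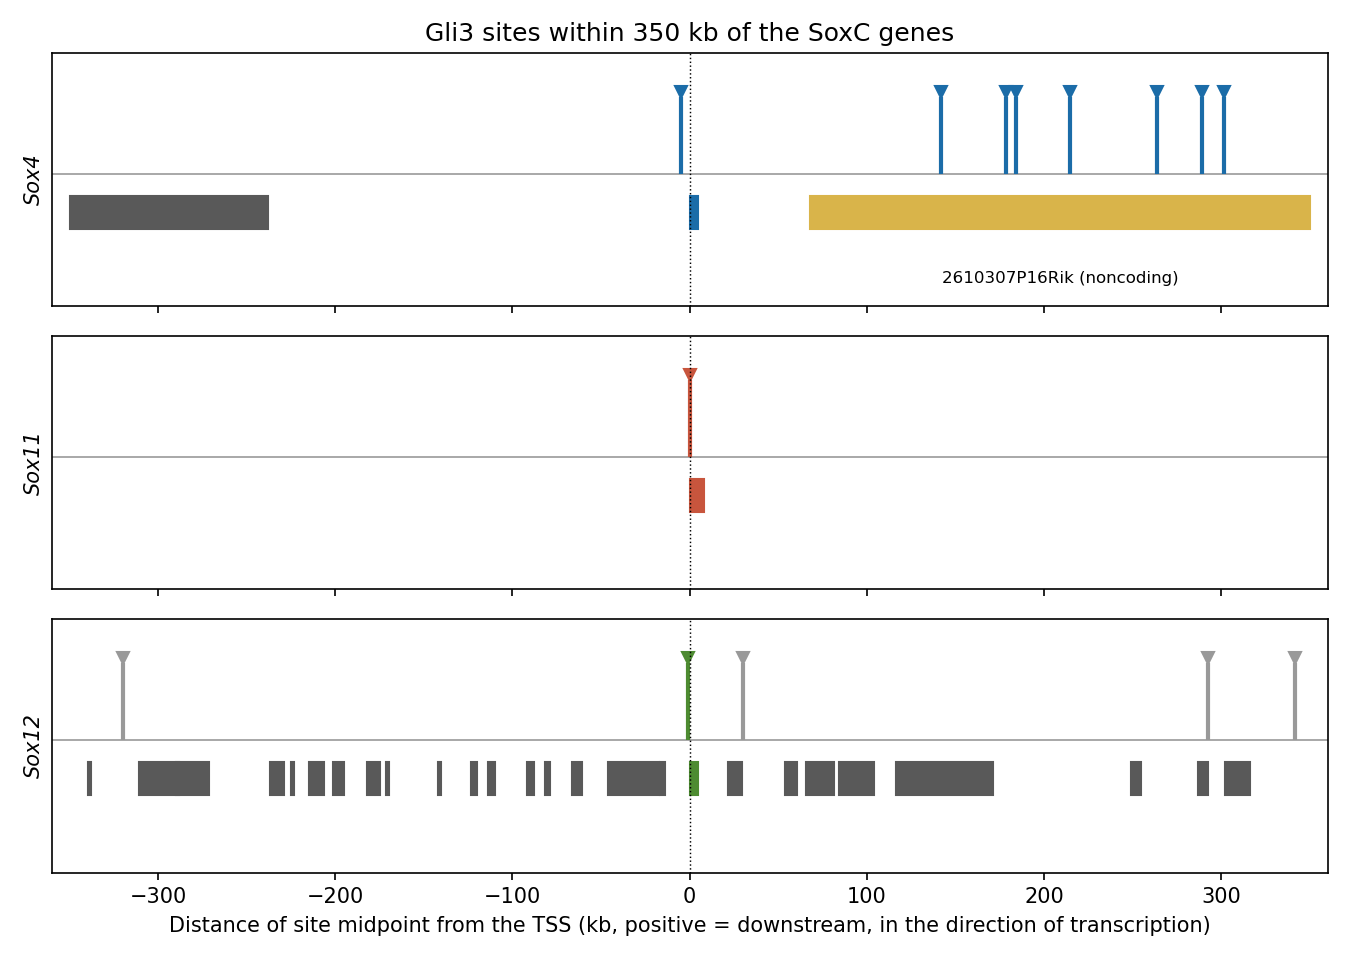
Gli3 sites within 350 kb of the TSS of each SoxC gene, placed by the distance of the midpoint from the TSS in kb along the direction of transcription. Coloured markers are sites nearest to the SoxC gene, light grey markers sites nearer to another protein-coding gene, dark blocks the bodies of other protein-coding genes (the smallest widened to be visible, and *Cdkal1* upstream of *Sox4*, whose TSS is outside the window), and the ochre block the noncoding gene *2610307P16Rik*, which holds 7 of the 8 markers at *Sox4*.

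At *Sox4*, 7 of the 8 sites formed a group downstream of the gene, at distances of 142, 178, 184, 215, 264, 289 and 302 kb from the TSS. They occupied 161.8 kb, from chr13:28650911 to 28812743, and together covered 13020 bp. The distances between neighbouring midpoints ranged from 6.16 kb, between the sites at 178 and 184 kb, to 48.8 kb, between those at 215 and 264 kb. This is 4.33 sites per 100 kb of the occupied span, beside 0.15 sites per 100 kb over all chromosomes. The span was set by the sites themselves, which raises its density by an amount that was not measured. Over the territory of 698.1 kb, whose ends the sites did not set, *Sox4* had 1.146 nearest sites per 100 kb. The gene itself was chosen with the sites known.

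All 7 midpoints lay in introns of *2610307P16Rik* (ENSMUSG00000085936.7), a noncoding gene annotated as a processed transcript with 7 transcripts over 425.6 kb at chr13:28460034-28885620. No exon of it was touched by any of the sites (0 of 7). Its own TSS is 68.1 kb from that of *Sox4*, on the same strand, and the sites were 73.9 to 234 kb from it. When the TSSs of all annotated genes were considered and not those of protein-coding genes alone, the nearest gene to the 4 sites farthest from *Sox4* was the microRNA gene *Mir6368*, at 20824 to 58858 bp, and that of the next 3 was the pseudogene *Gm17528*, at 15399 to 57866 bp. The assignment of these sites to *Sox4* therefore rests on position among protein-coding genes, and no contact between a site and a promoter was measured in these libraries.

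The remaining site at *Sox4* was the only one upstream. It spans chr13:28957567-28960016, with the midpoint 5078 bp upstream of the TSS, and ends 3853 bp short of it in intergenic sequence. The stretch between it and the downstream group, 145 kb that include *Sox4* itself, was free of listed sites. Beyond the window the next sites were 1031 kb upstream, at *E2f3*, and 2191 kb downstream, near *Hdgfl1*. The 8 sites were thus the only listed ones in a stretch of 3.22 Mb.

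Few protein-coding genes had as many nearest sites as *Sox4*. Of 21938, 3011 had at least 1 nearest site within 350 kb (13.7%), 2423 had exactly 1, and 7 had 8 or more (0.0319%), of which 4 had more than 8. The highest number was 16. The genes most like *Sox4*, with the same number of nearest sites, were *Tle3*, encoding a Groucho family corepressor, with a territory of 560.0 kb, and *Gse1*, with a territory of 205.9 kb. Within 2 kb of the TSS, *Tle3* had 2 sites, whereas *Gse1*, like *Sox4*, had 0. A large territory gives room for more sites. Per 100 kb of territory *Sox4* had 1.146 nearest sites, close to the median of 1.16 among the protein-coding genes with any nearest site, and 1514 genes had more. The 18927 genes with 0 nearest sites are not in that median, and over all chromosomes there were 0.15 sites per 100 kb. Whether the length of the territory accounts for the number at *Sox4* was not tested. Among the 549 genes without another protein-coding TSS in their window, a set to which *Sox4* belongs and whose territories vary, 162 had a nearest site (29.5%), the median was 0, and the highest number was 8, reached by *Sox4* and *Tle3*.

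**Figure D2:**
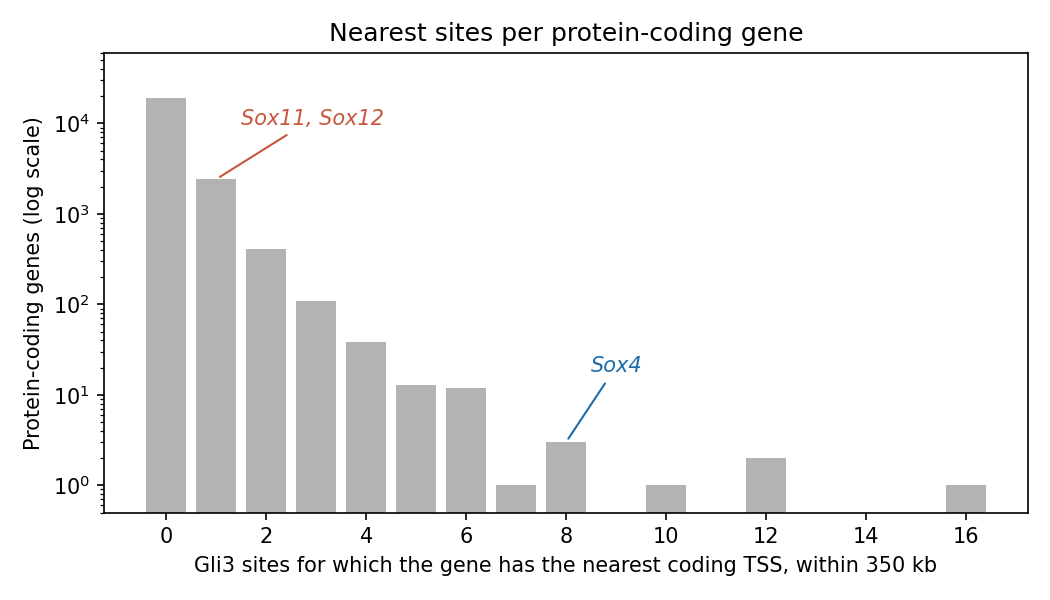
Number of protein-coding genes (log scale) by the number of Gli3 sites for which they have the nearest protein-coding TSS within 350 kb. Most genes, 18927, had 0 and 2423 had 1, the value of *Sox11* and *Sox12*, whereas *Sox4* shares the value of 8 with 2 other genes.

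The group lay far from any protein-coding TSS. The median distance of a site to the nearest protein-coding TSS was 18.7 kb over the 4099 sites, 806 sites were more than 100 kb away (19.7%), and 609 were more than 140 kb away (14.9%). All 7 downstream sites at *Sox4* were in the last class. Only *Sox4* and *Gins2* were nearest to 7 sites at 100 to 350 kb, followed by *Gm26897* and *Sox9* with 5 each. These genes were picked by that count after the values were seen.

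The 7 downstream sites were of ordinary width and of the base composition of other distant sites. Their widths were 2209, 818, 2121, 2438, 2064, 1331 and 2039 bp from the farthest to the closest, with a median of 2064 bp beside 1995 bp over all sites and 1776 bp over the 806 sites more than 100 kb from a protein-coding TSS. Their GC content ranged from 43.4% to 49.4% with a median of 45.3%, beside 46.4% for the distant sites and 51.4% for all sites. CpG dinucleotides were scarce, with an observed over expected ratio of 0.0938 to 0.268 and a median of 0.181, beside 0.211 for the distant sites. At most 4.15% of the 32-base words of any of these sites occurred elsewhere in the assembly, with a median of 1.38% beside 0.509% for the distant sites and 0.532% for all sites. Diverged repeats are not counted by this measure.

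The upstream site of *Sox4* stood apart from the group in composition. Its GC content was 58.4% and its CpG ratio 0.589. It was not one of the 1871 sites with a midpoint within 2 kb of a TSS, but its CpG ratio was close to their median of 0.58. Its GC content was above their median of 55.0% and close to their upper quartile of 58.7%. Of the 2228 sites farther from any TSS, 2.51% had a CpG ratio at least as high and 2.92% a GC content at least as high. The pair of sequences that follows illustrates this contrast over 200 bases of the plus strand. Over the whole sites the GC content was 45.3% and 58.4%, a smaller difference than in the stretches shown. The first is the centre of the site 178 kb downstream, at chr13:28775314-28775513, with the GLI core in capitals, a GC content of 40.0% and 2 CpG dinucleotides. The second is from the upstream site, at chr13:28958581-28958780, and was placed around a match to the SP family motif GGGCGGGG, not at the site centre. That match is in capitals, here as its reverse complement, and the stretch has a GC content of 64.5% and 12 CpG dinucleotides.
Sox4, site 178 kb downstream, centre: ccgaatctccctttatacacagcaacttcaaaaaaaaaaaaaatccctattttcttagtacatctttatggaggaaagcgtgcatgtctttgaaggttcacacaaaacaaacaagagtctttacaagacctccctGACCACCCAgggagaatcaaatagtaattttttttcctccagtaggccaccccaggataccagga
Sox4, site 5.08 kb upstream: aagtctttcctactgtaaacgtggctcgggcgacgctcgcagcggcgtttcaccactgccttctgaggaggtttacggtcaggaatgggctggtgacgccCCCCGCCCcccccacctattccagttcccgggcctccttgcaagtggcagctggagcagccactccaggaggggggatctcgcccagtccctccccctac

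The upstream site held 2 matches to the SP motif and 0 to the GLI core, with or without 1 mismatch. The SP motif, bound by Sp1 and its relatives at many CpG-rich promoters, was present in 33.8% of all sites and 11.5% of the flanks.

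**Figure D3:**
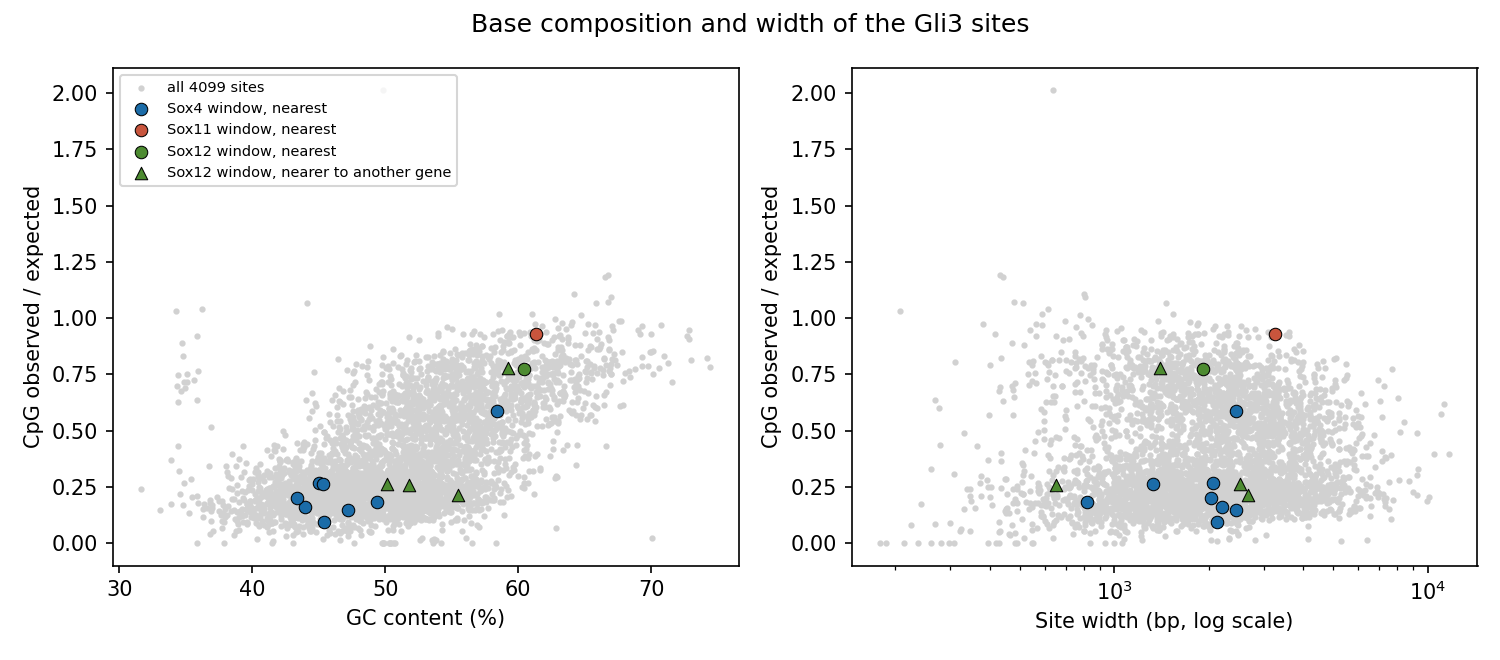
GC content in percent (left) and width in bp on a log scale (right) of every Gli3 site against the ratio of observed to expected CpG dinucleotides, with the sites of the SoxC windows in colour. The 7 downstream sites of *Sox4* lie among the CpG-poor sites, from 0.0938 to 0.268, and its upstream site lies with those at the *Sox11* and *Sox12* TSSs among the CpG-rich ones, from 0.589 to 0.929.

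At *Sox11*, the single site spans chr12:27340886-27344138 and is 3253 bp wide. Its midpoint was 62 bp downstream of the TSS, with 1564 bp upstream of it and 1689 bp from the TSS on. The entire coding sequence of 1185 bp, at chr12:27341224-27342408 in the only exon, lay inside the site (100.0%), whereas the long remainder of the exon toward the 3′ end did not. A site lay over the TSS of 1364 protein-coding genes (6.22%), and the midpoint of a site was within 2 kb of the TSS of 1510 (6.88%). The coding sequence lay entirely inside 1 site in 85 (0.387%), a set that depends on the length of the coding sequence. It is mixed, with histone genes such as *Hist1h2ac* and *Hist1h3d* and broadly expressed genes such as *Eif1*, *Gpx4* and *Srsf2*. It also includes short genes of cortical progenitors such as *Hes1*, *Hes5*, *Id2*, *Id3* and *Id4*. All of these were picked from it by name.

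The site at *Sox11* was wide, CpG-rich and isolated. Its width exceeded or equalled that of 81.0% of all sites, and of 76.1% of the 1209 sites that lay over a protein-coding TSS, whose median was 2320 bp. Its GC content of 61.3% was reached by 4.49% of the 824 sites within 20% of its width, and its CpG ratio was 0.929. The next sites were 873.1 kb downstream, at *Cmpk2*, and 1050 kb upstream, with *Dcdc2c* as the nearest gene, so that it was the only site in 1.92 Mb. With 1 site in a territory of 700.0 kb it had 0.143 nearest sites per 100 kb, fewer than 2980 of the 3011 genes with a nearest site. This rank follows from the cut at 350 kb, since no gene with a nearest site can have a lower value. The other 18927 protein-coding genes had 0 nearest sites. Among the 549 genes without another protein-coding TSS in the window, 49 had a site within 2 kb of the TSS (8.93%), and 101 had exactly 1 nearest site, for 28 of which this site was within 2 kb. Of the other 2422 genes with 1 nearest site, 30 shared the full territory, among them *Adgrl3*, *Auts2* and *Cdh11*, first by name. Unlike *Sox11*, each of these named genes had 0 sites within 2 kb of the TSS.

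At *Sox12*, the nearest site spans chr2:152397849-152399766 and is 1918 bp wide. Its midpoint was 744 bp upstream of the TSS, with 1703 bp upstream of it and 215 bp from the TSS on, and it shared 0 bp with the coding sequence of 942 bp. The site thus reached the promoter and the first bases of the transcript alone, in contrast to that at *Sox11*. Its GC content was 60.4% and its CpG ratio 0.774. The territory of *Sox12* was small, and 1 site in 19.2 kb gave 5.21 nearest sites per 100 kb, a value exceeded in 301 genes. Of the other genes with 1 nearest site, 3 had a territory of the same length to 0.1 kb, namely *4930519P11Rik*, *Ddx55* and *Tgfb1*, and each of the 3 had its site within 2 kb of the TSS as well.

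The other 4 sites in the window of *Sox12* were each nearer to another protein-coding gene. The closest, chr2:152366870-152369387, was 29.9 kb downstream of *Sox12* but 8510 bp from the TSS of *Nrsn2*, which encodes neurensin 2. Its midpoint lay in an intron of the noncoding gene *Gm14164*, 627 bp past the 3′ end of *Nrsn2*, and 633 bp of the site were shared with that gene. A site of 1401 bp at chr2:152104626-152106026 had its midpoint 190 bp from the TSS of *Srxn1*, the gene of sulfiredoxin. The site at chr2:152055103-152057783 was 25086 bp from *Scrt2*, a Snail-related zinc finger gene of newborn neurons, and that at chr2:152717675-152718324 was 18252 bp from *Id1*, an inhibitor of basic helix-loop-helix (bHLH) factors. The outermost sites inside the window were 342 kb downstream and 320 kb upstream, and the next ones outside were 1648 kb downstream, near *Entpd6*, and 432.2 kb upstream, near *Bcl2l1*.

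**Figure D4:**
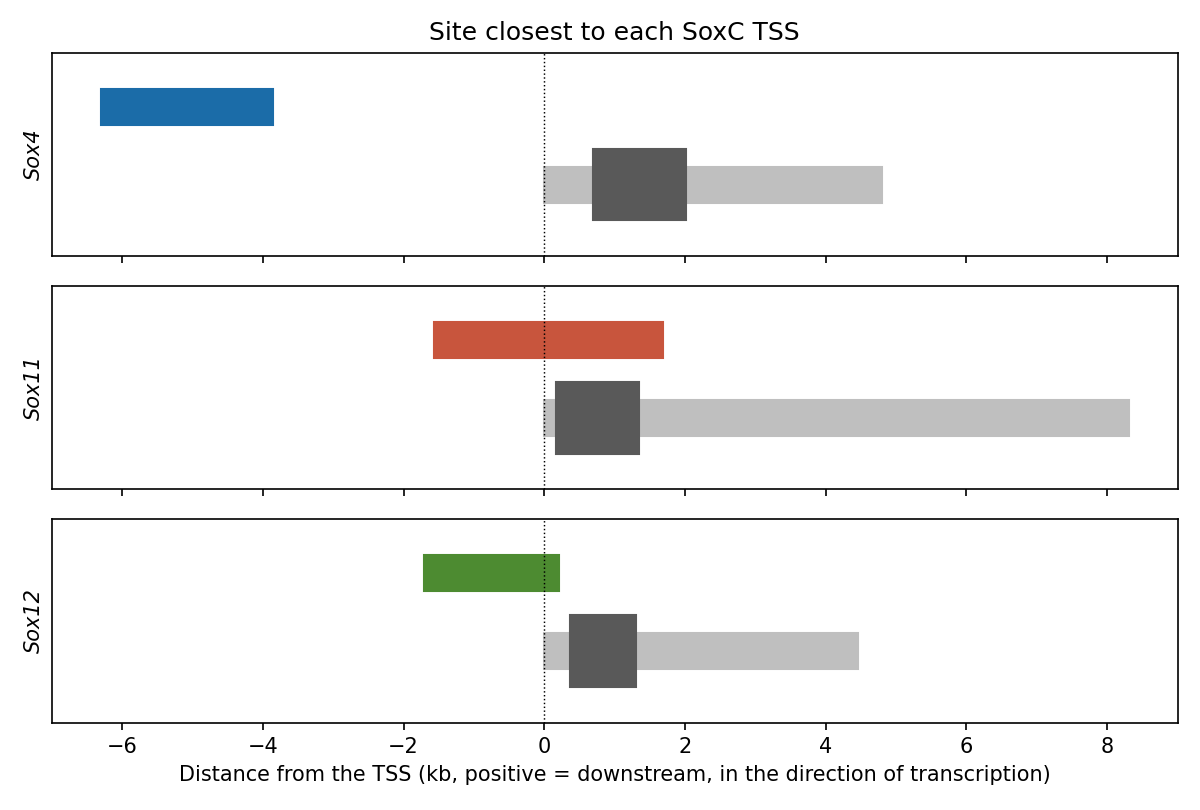
The Gli3 site closest to each SoxC TSS (coloured) above the gene (grey, with its coding sequence as a dark block), in kb from the TSS along the direction of transcription. The site of *Sox4* ends 3853 bp before the TSS, that of *Sox11* covers the TSS and all of the coding sequence, and that of *Sox12* covers the TSS and none of the coding sequence.

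The sequences before the start sites are given next because 2 of the 3 lie inside a Gli3 site. Each line holds 150 bases of the GRCm38 minus strand, read 5′ to 3′, that end just before the TSS, at chr13:28953714-28953863 for *Sox4*, chr12:27342719-27342868 for *Sox11* and chr2:152398064-152398213 for *Sox12*. Where GENCODE and RefSeq differed, by 14, 144 and 17 bp, the TSS farther upstream was used. Capitals mark a GLI core with 1 mismatch.
Sox4, not in a site: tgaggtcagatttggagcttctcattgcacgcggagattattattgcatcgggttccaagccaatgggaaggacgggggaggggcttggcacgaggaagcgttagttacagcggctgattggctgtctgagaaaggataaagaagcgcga
Sox11, in a site: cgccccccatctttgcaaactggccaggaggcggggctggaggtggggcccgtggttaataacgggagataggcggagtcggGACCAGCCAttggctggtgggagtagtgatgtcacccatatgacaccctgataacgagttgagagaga
Sox12, in a site: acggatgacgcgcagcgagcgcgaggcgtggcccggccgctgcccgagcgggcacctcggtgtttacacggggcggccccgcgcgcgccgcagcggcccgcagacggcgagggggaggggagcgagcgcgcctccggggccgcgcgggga

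The stretch before *Sox12* was the richest in GC, with 82.0% and 30 CpG dinucleotides, followed by *Sox11* with 59.3% and 7, and *Sox4* with 52.7% and 9. None of the 10 motifs examined had an exact match in any of these 3 stretches. The match before *Sox11* differs from the GLI core by C6G, with positions counted from 1 at the 5′ end of the core, and lies 208 bp upstream of the GENCODE TSS. The site at *Sox12* also held a core with 1 mismatch, G1A, 1.36 kb upstream of the TSS. With 1 mismatch allowed, however, 64.7% of all sites held a core, and 7 of the 10 sites nearest to a SoxC gene did, so that such matches are common in the list. In the RefSeq promoter windows, which reach from before to just after the start, an exact GLI core was present in 0.253% of 32851 entries and in none of the 3 genes (0 matches each).

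The other motifs were searched in the same way, on both strands and counting a site once. The motif of POU factors, ATGCAAAT, which partner with Sox proteins at many neural enhancers, was present in 4 of the 10 sites nearest to a SoxC gene, beside 11.8% of all sites and 11.7% of the flanks. The 4 were the sites 178, 184 and 215 kb downstream of *Sox4* and the site over the *Sox12* TSS, and 3 of the 20 flanks of the 10 sites held it too. The matches are shown with the motif in capitals, on the strand where they match, in GRCm38. They start at chr13:28739648 (plus), chr13:28769489 (minus), chr13:28769680 (minus) and chr13:28775024 (plus) for *Sox4*, and at chr2:152398234 (minus) for *Sox12*, where the match is 0.175 kb upstream of the TSS.
Sox4, site 215 kb downstream: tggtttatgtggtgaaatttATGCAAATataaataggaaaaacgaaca
Sox4, site 184 kb downstream, first: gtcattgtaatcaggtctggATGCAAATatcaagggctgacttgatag
Sox4, site 184 kb downstream, second: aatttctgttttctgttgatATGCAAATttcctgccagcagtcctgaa
Sox4, site 178 kb downstream: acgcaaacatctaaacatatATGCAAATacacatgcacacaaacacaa
Sox12, site over the TSS: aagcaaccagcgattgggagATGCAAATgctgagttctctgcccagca

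With 10 sites, these counts describe the sequences shown and were not compared with chance. In sites within 20% of their width, the POU motif was present in 7.5% to 13.5% for the 3 *Sox4* sites and in 11.9% for the *Sox12* site. Among RefSeq promoters it was present in 1.74%, and the match of *Sox12* was within this interval. The Sox motif AACAAAG was present in 3 of the 10 sites, beside 37.7% of all sites and 41.4% of the flanks. The E-box CAGCTG, bound by proneural bHLH factors, was present in 8 of 10, beside 68.6% and 60.7%, and the E-box CAGATG, preferred by the Neurog and Neurod factors, in 8 of 10, beside 72.8% and 76.6%. The SP motif was present in 4 of 10 and the RBPJ motif GTGGGAA of the Notch pathway in 4 of 10, beside 33.8% and 39.2% of all sites. The homeodomain motif TAATTA was present in 1 of 10, the site 264 kb downstream of *Sox4*, beside 38.2% of all sites and 11 of the 20 flanks. The KLF motif GGGCGTGG and the palindromic NFI motif were present in 0 of 10, beside 13.6% and 0.439% of all sites.

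In the wider Sox family, 7 of the 17 other genes had at least 1 nearest site (41.2%), beside 13.7% of all protein-coding genes. The share was 29.5% among the 549 genes without another protein-coding TSS within 350 kb, and no adjustment was made for territory. Of the 17, 2 had a site within 2 kb (11.8%), beside 6.88% of all protein-coding genes, and 7 had a site within 50 kb (41.2%), beside 23.5%. Among the SoxC genes, 2 of 3 had a site within 2 kb and 3 of 3 within 50 kb, but these genes were chosen with the sites known. Of the 17 other genes, the 2 with a site within 2 kb were *Sox8*, which acts in glial and neural crest lineages, and *Sox6*. The latter is a SoxD gene of interneurons and the oligodendrocyte lineage, and in both the site lay over the TSS. The midpoint of the site at *Sox6* was nearer to the TSS of *1110004F10Rik*, on the opposite strand. That site is therefore not among the nearest sites of *Sox6*.

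*Sox2*, the SoxB1 gene of neural progenitors, and *Sox9*, the SoxE gene of radial glia and astrocytes, came next to *Sox4* in this family by the number of nearest sites. Each had 6 nearest sites and 0 within 2 kb, in territories of 634.5 and 700.0 kb, or 0.946 and 0.857 nearest sites per 100 kb. Like *Sox4*, neither had another protein-coding TSS within 350 kb. The layout differed, since 4 sites were within 50 kb of the TSS of *Sox2*, whereas 1 was within 50 kb of *Sox9* and 1 within 50 kb of *Sox4*. Their closest sites were 3.96 kb from the TSS of *Sox2* and 2.4 kb from that of *Sox9*, beside 5.08 kb for *Sox4*. *Sox1*, *Sox6* and *Sox8* had 2 nearest sites each, *Sox14* and *Sox21* had 1, and the other 10 genes had 0, including *Sox5* and *Sox3*, whose closest sites were 392 and 395 kb away.

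**Figure D5:**
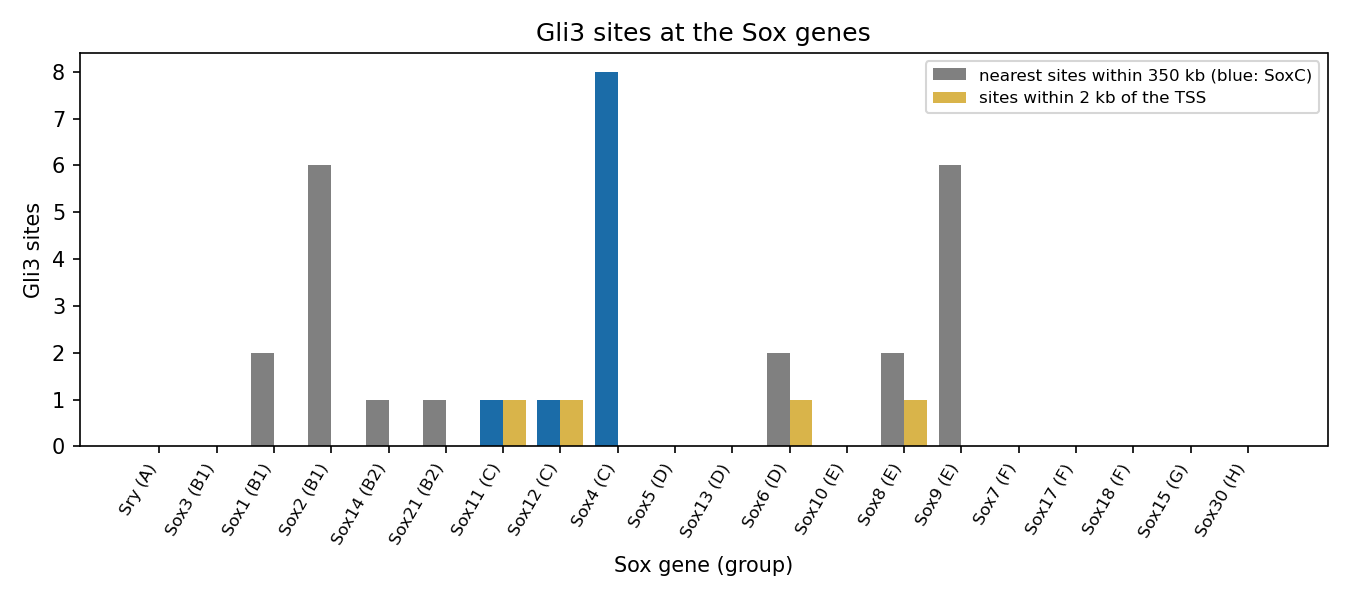
Number of Gli3 sites at the 20 Sox genes, ordered by their group (letter in brackets). Grey bars, or blue ones for SoxC, count the sites for which the gene has the nearest protein-coding TSS within 350 kb, and ochre bars count sites with the midpoint within 2 kb of the TSS, of which *Sox11*, *Sox12*, *Sox6* and *Sox8* have 1 each.

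A list of 20 genes linked to SoxC factors in developing neurons, as partners, regulators or targets, was examined in the same way. Of the 20, 1 had a site within 2 kb (5.0%), beside 6.88% of all protein-coding genes, and 9 had a site within 50 kb (45.0%), beside 23.5%. The 1 gene was *Pou3f2*, a POU factor that acts with SoxC proteins, with a site over its TSS. A site also covered the TSS of *Fezf2*, which specifies subcerebral projection neurons, and its midpoint was 2.33 kb away.

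Among the proneural genes, *Neurog2* had 1 nearest site at 7.13 kb, whereas *Neurog1* and *Neurod1* had 0. *Eomes*, the marker of intermediate progenitors, had 1 nearest site at 22.1 kb. *Tubb3*, a neuronal tubulin gene that SoxC proteins activate, had 1 nearest site at 2.22 kb, and *Dcx*, *Map2* and *Stmn1* had 0. *Ezh2*, the histone methyltransferase gene that Sox4 regulates in other tissues, had 7 nearest sites, none of them within 50 kb, with the closest at 55.8 kb. Its territory was 180.0 kb, and 23 sites lay within 350 kb of its TSS, the others being nearer to other genes. *Pou3f3* and *Fezf2* had 3 nearest sites each, *Bcl11b* had 2 and *Prox1* had 1, and *Tead2*, *Tbr1*, *Reln* and *Dpysl3* had 0. In all, 9 genes had a nearest site (45.0%), beside 13.7% of all protein-coding genes, and 11 had 0. The share was 29.5% among the 549 genes without another protein-coding TSS within 350 kb. Territories differ between the listed genes, and the shares were not adjusted for them.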

How the data were processed

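The authors sequenced Gli3 ChIP and input DNA from E15 cortices in 3 biological replicates. The file heading gives paired reads of 85 bases and a repeat filter, whereas the methods of the paper state a longer read length. Bowtie2, SAMtools and MACS2 are named in the submitters' processing notes, with build mm10. Their versions and thresholds were not given in the sources used here. The deposited values are positions only, one named interval for each peak that passed the authors' irreproducible discovery rate (IDR) step over the replicates (its optimal set), without any score. Site number and width depend on those settings, and the library depth is unknown.

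Starts were converted to 1-based positions. Genes came from GENCODE M21, sequence from GRCm38.p6, and promoter windows from the RefSeq table of that build. The deposited list holds 4114 sites, fewer than the number stated in the paper, and the reason is not known here. Of the 4114 sites, 15 on scaffolds were left out. Promoter means a midpoint within 2 kb of any transcript TSS. Flanks had the length of their site. Repeated words were 32-base words, taken every 10 bases, found again in the assembly. Motif matches were exact on both strands, and the NFI motif was TTGGC and GCCAA separated by any 5 bases. The search was tested on simulated sequences. The genes named were the 3 members, the nearest protein-coding gene of each site, any gene that held a midpoint, listed genes with a site within 2 kb or a nearest site, and the genes most like each member by territory. A few others were named after their values were seen, and a few genes of the lists are not reported here. The members and lists were chosen with earlier results of these data known, and no test was made. Python 3.11.15, numpy 2.4.6, pandas 2.3.3 and pysam 0.24.0 were used.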

Additional observations from a re-analysis of the deposited data

How the results depend on the processing

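Of 42 alternatives over 9 results, 33 left the count within 1.5 times its value. With a window of 100 kb the sites at *Sox4* fell to 1, both in the window and nearest, and those at *Sox12* to 2. With the TSSs of all annotated genes considered, 1 site was nearest to *Sox4*. The GLI core was found in 10 of the 14 sites with 1 mismatch allowed and in 1 within the central 200 bp. Over all sites the number with a core rose to 2653 with 1 mismatch and to 836 with the first 8 bases, and was 69 within the central 200 bp. The counts at *Sox11* were the same under every alternative. No paired analysis was possible because the result comes from no test and the list holds no replicate values. Neither a stricter peak threshold nor leaving out a replicate could be tried, since the list has no scores and joins the replicates.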
